A study of Arabidopsis thaliana with 36 samples.

Results

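AT4G25250, a gene of the pectin methylesterase inhibitor type, and AT3G28550, a gene of the extensin type, were followed across 6 sorted cell populations of the Arabidopsis thaliana root on standard medium and on salt. They are 2 of the 13355 genes that the arrays measured with a probe set of their own, and each had 1 probe set, 254056_at for AT4G25250 and 257041_at for AT3G28550. Both were picked for their high signal in the epidermis and lateral root cap on standard medium. Among 9892 probe sets naming 1 gene they ranked 1 and 2 by the distance of that population from the next highest one, at 17.8-fold and 15.7-fold. AT1G53680, the gene just outside the choice, stood 3.90 above its next population on the log2(signal + 16) scale, against 4.15 for AT4G25250 and 3.98 for AT3G28550. The levels on standard medium are therefore given as a description, with no test.

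All groups were seedling roots of ecotype Columbia, 6 days after germination, and each population came from a single GFP line. WER::GFP marked the epidermis and lateral root cap, PET111 the columella root cap, CORTEX the cortex, SCR::GFP the endodermis and quiescent center, WOL::GFP the stele and S32 the protophloem. Roots stayed on standard medium or were moved to 140 mM NaCl for 1 h, their walls were then digested, and fluorescent protoplasts were sorted before RNA was amplified for the arrays. Each of the 12 groups held 3 arrays, and the study asked how cell identity along the radial axis shapes the response to salt.

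Pectin is laid down in growing cell walls with its acid groups masked as methyl esters. Pectin methylesterases remove these esters in the wall, which lets calcium link neighbouring chains or opens them to degradation, and pectin methylesterase inhibitors are small secreted proteins that bind the enzymes and block them. Extensins are hydroxyproline-rich glycoproteins that become cross-linked into the wall network. In roots they are best known from epidermal cells and the hairs that grow from them.

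Signals were MAS5 intensities on a linear scale, scaled by the authors to the same trimmed mean on each array, and the 40th percentile of an array lay between 32.4 and 66.3. AT4G25250 exceeded that percentile on 20 of the 36 arrays and AT3G28550 on 11, in each case with all 6 epidermis arrays among them. Both genes passed the filter on low signals. Outside the epidermis, many of their values therefore lie where a signal cannot be told from background, and a fold change there depends on the offset of 16 added before taking logs. Whether the replicates are separate plantings is not stated in the labels. The p-values cover the spread among these arrays only, and that spread may be technical. Because RNA was pooled over cells, fewer cells of a type and less RNA per cell cannot be told apart.

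On standard medium AT4G25250 had signals of 2676, 2608 and 3080 in the epidermis and lateral root cap, a mean of 2788 ± 255 (SD, n = 3). Its signals were 260, 117 and 90.2 in cortex and 126, 85.6 and 126 in columella. The 3 epidermis arrays were close to each other and far above these, and cortex and columella were the only other populations with all 3 arrays above the 40th percentile. In stele the signals were 28.0, 33.2 and 441, so that replicate 3 alone was high. In endodermis they were 3.09, 2.83 and 117, again with replicate 3 as the high one. Protophloem had 1.43, 31.4 and 16.3, all under the 40th percentile. By the mean of log2(signal + 16) the order was epidermis (11.45), cortex (7.30), columella (6.99), stele (6.64), endodermis (5.18) and protophloem (4.90). The epidermis did not overlap with the cortex, whereas every later neighbour in this order overlapped with the next.

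AT3G28550 had 542, 600 and 984 in the epidermis and lateral root cap on standard medium, a mean of 709 ± 241 (SD, n = 3). Stele gave 9.95, 4.61 and 149, and cortex gave 72.5, 5.34 and 5.48. Each of these populations thus had a single array above the 40th percentile, replicate 3 in stele and replicate 1 in cortex. Endodermis gave 45.2, 19.7 and 3.30, columella 18.8, 14.6 and 17.2, and protophloem 7.85, 11.0 and 3.51. No array of these 3 populations passed the 40th percentile. The order by mean log2(signal + 16) was epidermis (9.45), stele (5.48), endodermis (5.12), cortex (5.10), columella (5.04) and protophloem (4.54). Between the epidermis and stele there was no overlap, and the populations from stele to columella overlapped with their neighbours. Columella and protophloem did not overlap, but both lay under the 40th percentile.

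**Figure D1:**
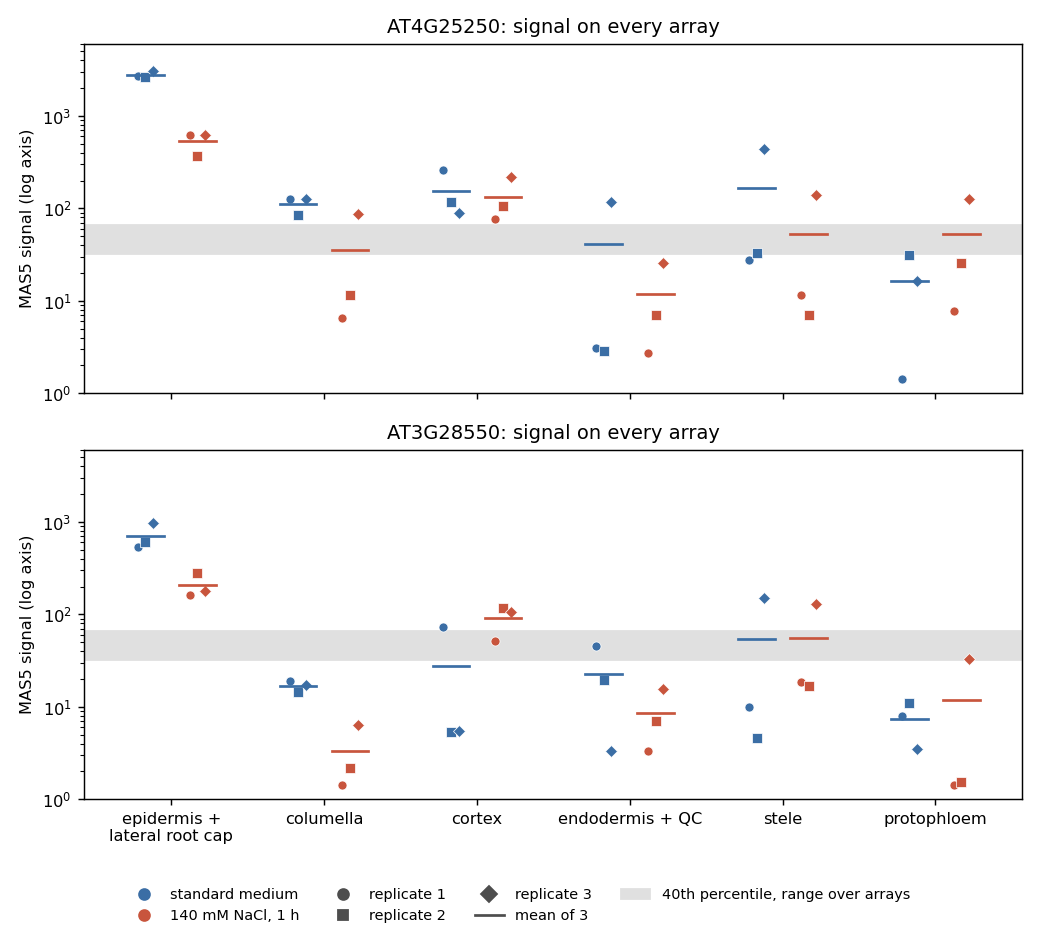
MAS5 signals of AT4G25250 (top) and AT3G28550 (bottom) on each of the 36 arrays by population, on a log axis, with standard medium in blue and 140 mM NaCl in red. Marker shapes give the replicate, bars the mean of 3, and the grey band the 40th percentile of the arrays (32.4 to 66.3). The 3 epidermis arrays stand above all others on both media, and fall with salt from 2788 to 534 and from 709 to 207.

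With salt the epidermis and lateral root cap remained the population with the highest signals of both. The distance that ranked the genes came from standard arrays only, but the genes were chosen with earlier results of these data known. AT4G25250 had 616, 372 and 615 there, a mean of 534 ± 140 (SD, n = 3), and AT3G28550 had 160, 280 and 180, a mean of 207 ± 64.6. The highest of the 15 other salt arrays was cortex replicate 3 for AT4G25250, at 217, and stele replicate 3 for AT3G28550, at 130. The epidermis arrays did not overlap with the others for either gene, a pattern found for 4.85% of the 17633 probe sets tested. The lowest epidermis array was 1.71 times the highest other array for AT4G25250 and 1.23 times for AT3G28550, against 5.92 and 3.64 times on standard medium.

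Against the mean of the other 5 populations on the salt arrays, AT4G25250 was higher in the epidermis by 3.39 ± 0.61 (SE) on the log2 scale, a 10.5-fold difference (limma, Benjamini-Hochberg adjusted p = 5.3e-05). AT3G28550 was higher by 2.57 ± 0.47, or 5.95-fold (limma adjusted p = 6.3e-05). In this comparison 19.0% of all probe sets passed as higher. Both differences passed in each of the 18 fits that left out 1 salt array. The difference from cortex alone, the next population, was 1.95 ± 0.79 for AT4G25250 (limma adjusted p = 0.0402, where 23.8% of probe sets passed as higher). For AT3G28550 it was 1.07 ± 0.61, with a 95% interval from -0.17 to 2.31 (limma adjusted p = 0.142), although the arrays did not overlap. The AT4G25250 difference from cortex no longer passed without salt replicate 1, 2 or 3 of the epidermis or salt replicate 1 or 2 of the cortex, at 1.67 to 2.19 with adjusted p from 0.0505 to 0.137.

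The remaining salt levels were low. AT4G25250 had 76.9, 106 and 217 in cortex, 7.68, 25.4 and 127 in protophloem, and 11.5, 6.96 and 139 in stele. It had 6.59, 11.7 and 86.9 in columella and 2.75, 6.97 and 25.9 in endodermis. Replicate 3 was the highest array in each of these 5 populations, and all neighbours in the order from cortex down to endodermis overlapped. AT3G28550 had 50.9, 118 and 107 in cortex and 18.7, 16.9 and 130 in stele, and it stayed at or under 32.9 on every array of protophloem, endodermis and columella. Its order on salt was epidermis, cortex, stele, protophloem, endodermis and columella, and from cortex on every neighbour overlapped with the next.

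AT4G25250 fell in the epidermis and lateral root cap with salt. All 3 salt arrays (372 to 616) lay below all 3 standard arrays (2608 to 3080), as they did for 26.2% of all probe sets tested. The change was -2.38 ± 0.79 (SE) on the log2(signal + 16) scale, a 5.21-fold drop with a 95% interval from -3.99 to -0.77 (limma adjusted p = 0.0226). In this population 12.6% of probe sets passed as lower, and 118 of 17633, or 0.669%, had a more negative change. The standard arrays entered both the choice of the gene and this difference, so the fall is not independent of the choice. The call was lost with an offset of 1 (adjusted p = 0.142), where the size was -2.42, and in fits that left out any 1 standard array or salt replicate 2 (changes from -2.43 to -2.15, adjusted p from 0.0527 to 0.0875). In a fit on the 6 epidermis arrays alone the change was -2.38 ± 0.20 (limma adjusted p = 2.7e-05).

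AT3G28550 also fell in the epidermis and lateral root cap, from 542 to 984 down to 160 to 280, again with no overlap. Its change was -1.69 ± 0.61 (SE), a 3.23-fold drop with a 95% interval from -2.93 to -0.46 (limma adjusted p = 0.0350), and 482 probe sets, or 2.73%, changed more negatively. The same limit of choice applies. This call was lost with an offset of 1, at -1.76 (adjusted p = 0.228), and without any 1 standard replicate or salt replicate 1 or 3 (changes from -1.86 to -1.43, adjusted p from 0.0511 to 0.133). On the 6 epidermis arrays alone it was -1.69 ± 0.26 (limma adjusted p = 0.000832).

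The quality controls of the epidermis arrays differed between the media as well. The 5′/3′ ratio of the GAPDH control signals, a measure of how complete the copied transcripts were, went from 1.52 ± 0.163 (SD, n = 3) on standard medium to 0.248 ± 0.140 with salt. The actin ratio went from 0.155 to 0.0490 and the ubiquitin ratio from 0.457 to 0.316. With the GAPDH ratio as a covariate the epidermis change was -1.09 for AT4G25250 (limma adjusted p = 0.566) and -1.48 for AT3G28550 (limma adjusted p = 0.284), so both calls were lost. The epidermis standard arrays, at GAPDH ratios of 1.41 to 1.71, lay above every other array. The highest other array was cortex standard replicate 3, at 0.504, so the covariate fit carries a slope across that gap. On standard medium the other populations had mean ratios from 0.0499 to 0.444, so the epidermis also stood apart in this ratio where both genes led. The part of RNA quality in the falls and in that lead was not tested beyond the covariate.

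In cortex AT3G28550 rose and AT4G25250 did not pass. AT3G28550 went from 72.5, 5.34 and 5.48 to 50.9, 118 and 107, and the groups overlapped, since salt replicate 1 lay below standard replicate 1. Its change was 1.59 ± 0.61 (SE), or 3.01-fold, with a 95% interval from 0.35 to 2.82 (limma adjusted p = 0.0382, where 22.4% of probe sets passed as higher). Low standard signals outside the epidermis were part of the choice of the gene, so this rise is not independent of it either. The call was lost when replicate 2 or 3 of either medium was left out (changes from 1.25 to 1.46, adjusted p from 0.0823 to 0.160) and with 6 other settings. AT4G25250 changed in cortex by -0.19, with a 95% interval from -1.79 to 1.42 (limma adjusted p = 0.869), and its arrays overlapped. The cortex GAPDH ratio also went down, from 0.444 ± 0.0596 (SD, n = 3) to 0.150 ± 0.0760. The other control ratios went up there, actin from 0.0476 to 0.129 and ubiquitin from 0.211 to 0.259.

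Changes in the other populations did not pass. For AT4G25250 they were -1.66 in columella, -0.47 in endodermis, -1.11 in stele and 0.80 in protophloem (limma adjusted p from 0.148 to 0.881). The columella change came with overlapping arrays, since salt replicate 3 (86.9) lay above standard replicate 2 (85.6). Without that salt array it was -2.34 and passed (limma adjusted p = 0.0452, where 8.93% of probe sets passed as lower over all arrays). The share in that fit may differ, as fits without 1 columella array called 629 to 4048 probe sets in either direction, against 2503 over all arrays. For AT3G28550 the changes were -0.77 in columella, -0.53 in endodermis, 0.31 in stele and 0.08 in protophloem (limma adjusted p from 0.395 to 0.939). In columella all 3 salt arrays (1.41, 2.16 and 6.33) lay below all 3 standard arrays (14.6 to 18.8), as for 20.5% of probe sets, but all of them were under the 40th percentile.

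**Figure D2:**
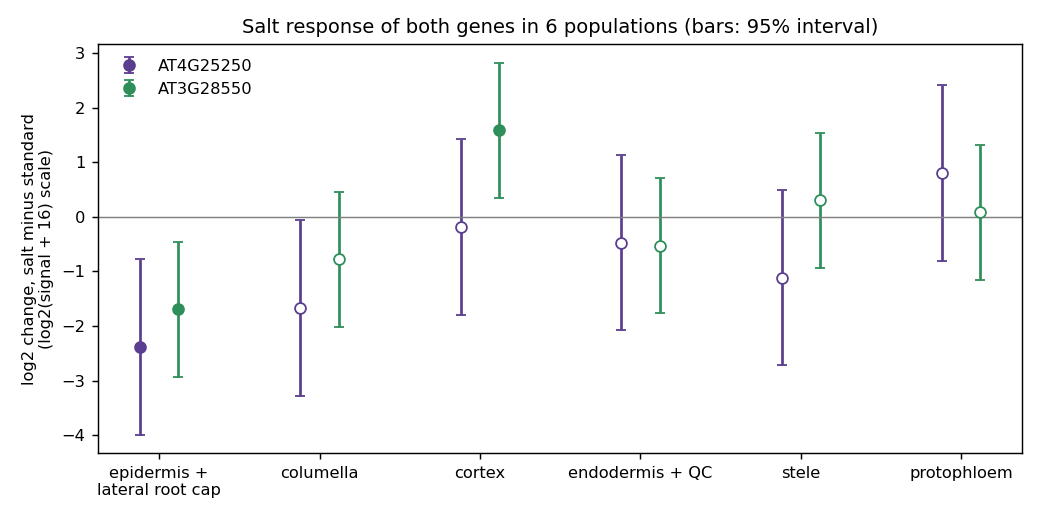
Salt minus standard change of AT4G25250 (purple) and AT3G28550 (green) in the 6 populations, on the log2(signal + 16) scale, with bars for the 95% interval of the limma fit on 36 arrays. Filled points passed at an adjusted p under 0.05: both genes in the epidermis (-2.38 and -1.69), and AT3G28550 in cortex (1.59).

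Averaged over the 6 populations, AT4G25250 fell with salt by 0.84 on the log2 scale (SE 0.32, limma adjusted p = 0.0316, where 28.8% of probe sets passed as lower). Over the 5 populations other than the epidermis, whose standard arrays served the choice, the AT4G25250 average was -0.53 ± 0.35 and did not pass (limma adjusted p = 0.232). The average change of AT3G28550 over all 6 was -0.17 ± 0.25 (limma adjusted p = 0.595). Whether the epidermis response differed from the rest was tested as a difference. The standard arrays of the choice enter it and favour a lower epidermis response, so it is not independent of the choice in any setting. The epidermis response minus the mean response of the other 5 populations was -1.85 ± 0.86 for AT4G25250 (limma adjusted p = 0.155) and -1.83 ± 0.66 for AT3G28550 (limma adjusted p = 0.0620), and neither passed. In that comparison 5.82% of probe sets passed as lower. With an offset of 64 both passed, at -1.96 (adjusted p = 0.0106) and -1.59 (adjusted p = 0.00247), and in a fit on replicates 1 and 2 AT4G25250 passed at -1.68 (adjusted p = 0.0102) while AT3G28550 did not. The AT3G28550 difference passed without cortex standard replicate 1, at -1.96 (adjusted p = 0.0326), and without stele standard replicate 3, at -2.01 (adjusted p = 0.0127).

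The F test over the 6 salt responses passed for AT3G28550 (F = 3.38, limma adjusted p = 0.0364) and not for AT4G25250 (F = 2.05, limma adjusted p = 0.150), beside 46.6% of all probe sets. Differences between pairs of populations were added after these values were seen. The choice of both genes used high epidermis and low other signals on the standard arrays, which enter the F test and each of these differences and favour a lower epidermis response, so none of them is independent of the choice. The epidermis response of AT3G28550 lay below its cortex response by a log2 difference of -3.28 ± 0.86 (SE), with a 95% interval from -5.03 to -1.53 (limma adjusted p = 0.00884, where 9.02% of probe sets passed as lower). This difference passed in each of the 12 fits without 1 array, at -3.96 to -2.94. For AT4G25250 the same difference was -2.20 ± 1.12 (limma adjusted p = 0.168). The AT4G25250 response in the epidermis lay below that in protophloem by a log2 difference of -3.18 ± 1.12 (limma adjusted p = 0.0416, where 8.80% of probe sets passed as lower). That call was lost in 9 of 12 fits without 1 array, at -3.30 to -2.45 with adjusted p from 0.0508 to 0.130, and with the GAPDH ratio as covariate the difference was -1.04 (adjusted p = 0.806).

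The sorted populations could be checked against few markers, as only 8 of 29 marker genes were measured by a probe set of their own, and none of the lateral root cap and columella list was. Of 9 epidermis and root hair markers the expansins EXPA7 (AT1G12560) and EXPA18 (AT1G62980), wall-loosening proteins of root hairs, were measured. Their summed signal was 858 to 912 in the epidermis and lateral root cap on standard medium. With salt it was 234, 270 and 1054 there, so replicates 1 and 2 lay below the standard range and replicate 3 above it. In cortex the sum went from 93.6 to 136 up to 381 to 837, in the same direction as AT3G28550. The cortex marker AT1G09750 went there from 3040, 2218 and 2691 to 237, 207 and 261, and the second cortex marker, CO2 (AT1G62500), stayed under the filter on low signals. Of the markers of inner cell types, OPS (AT3G09070, protophloem) rose with salt in the epidermis by 1.05 (limma adjusted p = 0.0252). It went there from 17.1, 5.18 and 0.608 to 31.8, 38.3 and 23.5. Each of these signals lay below the percentile that the filter on low signals took from its array. In cortex PHV (AT1G30490, stele) rose by 1.07 (limma adjusted p = 0.0162) and EN7 (AT4G28100, endodermis) changed by -1.18 (limma adjusted p = 0.00047). PHV went there from 24.0, 8.56 and 30.9 to 21.6, 46.4 and 166. Its standard and salt signals overlapped, and only salt replicate 3 exceeded that percentile. On standard medium EN7 had means of 383 in cortex and 447 in endodermis, and PHV had means of 373 in columella and 381 in stele. Neither gene thus singled out its named population in these data. LHW (AT2G27230, stele) passed in neither the epidermis nor cortex. No marker named here was at 0, but signals below that percentile cannot be told from background. The part of these markers in the AT3G28550 rise in cortex and in the epidermis falls was not tested.

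Replicate 3 stood above replicates 1 and 2 in the expansin sum in all 6 populations on salt, at 574 against 17.5 and 85.1 in endodermis, 485 against 66.8 and 58.1 in protophloem and 246 against 44.0 and 48.8 in columella. On standard medium it was the highest in 5 of the 6, all but cortex, and the gap was widest in stele. The summed expansin signal was 212 and 202 in stele replicates 1 and 2 on standard medium and 2213 in replicate 3. With salt the sums were 62.8 and 71.2 against 1371. The high stele signals of AT4G25250 (441 and 139) and AT3G28550 (149 and 130) fell on the same pair of arrays. Without both arrays, a setting added after the data were seen, the epidermis response of AT3G28550 minus the mean of the others was -1.87 and passed (limma adjusted p = 0.00901), and its difference from cortex on salt passed at 1.07 (limma adjusted p = 0.0456). The limit of choice applies to that response difference too. No salt call of either gene in the epidermis or cortex was lost without both stele arrays. AT4G25250 had its highest array in replicate 3 in 9 of the 12 groups and AT3G28550 in 6 of 12.

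**Figure D3:**
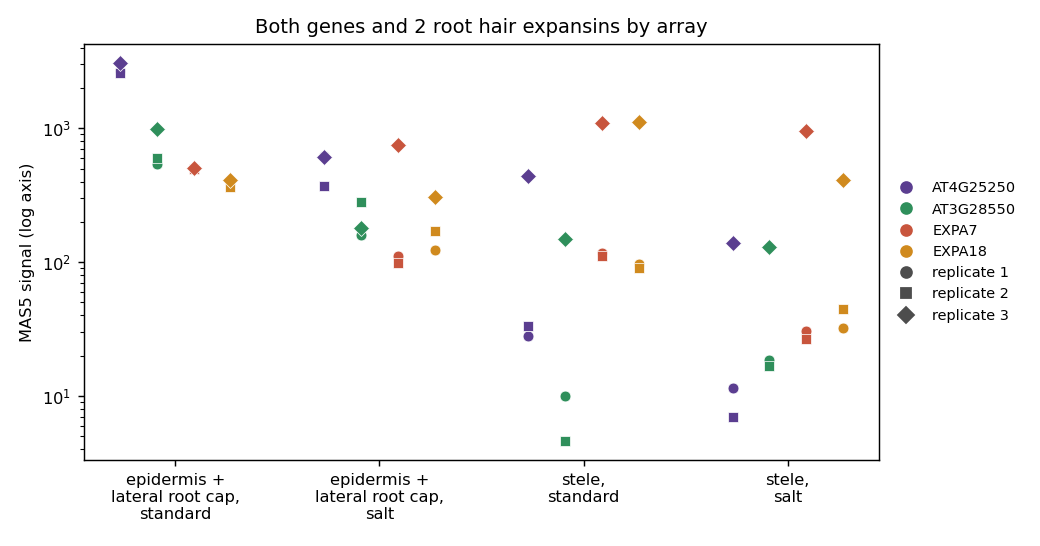
MAS5 signals (log axis) of both genes and of the root hair expansins EXPA7 and EXPA18 on each array of the epidermis and lateral root cap and of the stele. Diamonds mark replicate 3, which in stele lies above replicates 1 and 2 for all 4 genes on both media, at 441 and 139 for AT4G25250 and 149 and 130 for AT3G28550.

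Lists of the wall protein families place both genes among their relatives. Of 26 extensin genes 8 had a tested probe set, and in the epidermis 6 of the 8 fell with salt, where 12.6% of all probe sets did, and none rose. Their median change was -1.66, against 0.07 for all probe sets tested, and without AT3G28550 it was 5 of 7 with a median of -1.63. The log2 change was -2.69 ± 0.41 (SE) for AT1G23720 (limma adjusted p = 8.7e-06) and -2.43 ± 0.45 for AT5G06630 (limma adjusted p = 0.00012). It was -1.89 ± 0.39 for the hydroxyproline-rich glycoprotein gene HRGP1 (AT3G54590, limma adjusted p = 0.00045) and -1.21 ± 0.33 for AT4G18670 (limma adjusted p = 0.00585). The probe sets of AT1G23720, AT5G06630 and HRGP1 share probes with related genes, so their values are uncertain. AT3G28550, whose probe set does not carry that mark, thus had a change near the middle of the list.

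In cortex 4 of the 8 extensins rose and none fell, with a median of 1.17 against 0.17 for all probe sets, of which 22.4% rose and 15.7% fell. They were AT3G28550, AT5G06630 (1.93), HRGP1 (1.25) and AT2G43150 (1.32), the last named after its value was seen. The count was 2 with the GAPDH ratio as a covariate and also 2 without cortex standard replicate 2. Without AT3G28550, whose low cortex signals on standard medium were part of its choice, 3 of 7 rose, with a median of 1.09. The difference between the epidermis and cortex responses, added after the data were seen, passed as lower for all 8 extensins tested, with a median of -2.93 against -0.08 for all probe sets, of which 9.02% passed as lower. It was -4.35 for AT5G06630, -3.58 for AT1G23720, -3.13 for HRGP1 and -1.42 for AT4G18670, and AT3G28550 lay among them at -3.28. These relatives were named for their salt change in the epidermis, which enters the difference, so their values are not independent of the naming. Without AT3G28550 the difference passed as lower for all 7 extensins, with a median of -2.72. The GAPDH ratio given above went down with salt in both of these populations. The expansin sum was higher with salt in cortex, and in the epidermis its salt arrays lay both below and above the standard ones. Neither EXPA7 nor EXPA18 passed in either population (limma adjusted p from 0.0975 to 0.455). The part of these values in the extensin comparisons was not tested. In columella 1 extensin fell, in stele 2 and in protophloem 3, none passed in endodermis, and none rose in these 4 populations. Of all probe sets 14.2% passed in either direction in columella, 25.3% in stele, 24.2% in protophloem and 2.52% in endodermis. Those that passed as lower were 1574 of 17633 in columella, 2445 in stele, 2191 in protophloem and 179 in endodermis. On the salt arrays 1 of the 8, AT3G28550, was higher in the epidermis than the mean of the other 5 populations, and none was lower. Of all probe sets 19.0% passed as higher and 18.4% as lower there.

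Of 22 pectin methylesterase inhibitor genes 12 had a tested probe set. In the epidermis 2 of the 12 rose and 2 fell, shares near those of all probe sets (15.6% and 12.6%), with a median change of 0.60. AT4G25250 was one of those that fell, and the other was AT4G25260, its next-door neighbour in the RefSeq annotation of assembly TAIR10.1. AT4G25260 had 847, 843 and 911 in the epidermis on standard medium and 309, 257 and 226 with salt, a fall by 1.67 on the log2 scale (SE 0.25, limma adjusted p = 1.0e-05). The neighbours were unlike in cortex. AT4G25260 had 947, 631 and 702 there on standard medium, close to its epidermis level, and 111, 93.4 and 98.7 with salt, a fall by 2.71 (SE 0.25, limma adjusted p = 5.5e-09), whereas AT4G25250 was at 260 or less on both media. AT1G14890 rose in the epidermis by 1.51 ± 0.52 (limma adjusted p = 0.0290) and AT3G47380 by 1.04 ± 0.33 (limma adjusted p = 0.0174).

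In cortex 6 of the 12 inhibitors rose and 1, AT4G25260, fell, with a median of 1.16, while 22.4% of all probe sets rose and 15.7% fell. The largest rise, 4.13 ± 0.44 (limma adjusted p = 7.5e-08), was that of AT3G17130, named after its value was seen, from a mean of 174 ± 70.4 (SD, n = 3) to 3408 ± 1543. AT4G25250 did not pass there. Inhibitors that rose and fell numbered 1 and 0 in columella, 0 and 0 in endodermis, 4 and 1 in stele and 3 and 1 in protophloem, where 14.2%, 2.52%, 25.3% and 24.2% of all probe sets passed in either direction. Of all 17633 probe sets, those that rose and fell numbered 929 and 1574, 265 and 179, 2024 and 2445, and 2082 and 2191 in these populations. On the salt arrays 5 of the 12 inhibitors, AT4G25250 among them, were higher in the epidermis than the mean of the others, and 4 were lower, beside 19.0% and 18.4% of all probe sets.

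Of 33 pectin methylesterase genes, which encode the enzymes that inhibitors act on, 11 had a tested probe set. In the epidermis 2 rose and none fell, with a median of 0.69, where 15.6% of all probe sets rose. AT5G09760 rose by 1.38 ± 0.31 (limma adjusted p = 0.0011) and PMEPCRF (AT5G53370) by 1.30 ± 0.41 (limma adjusted p = 0.0158). The next by adjusted p were ATPMEPCRB (AT4G02330), at -1.16 ± 0.46 (limma adjusted p = 0.0573), and AT3G49220, at 0.69 ± 0.28 (limma adjusted p = 0.0657). In cortex 2 rose and 1 fell, beside 22.4% and 15.7% of all probe sets. Genes that rose and fell were 0 and 1 in columella, in endodermis and in stele, and 1 and 0 in protophloem, beside 14.2%, 2.52%, 25.3% and 24.2% in either direction. The numbers of all probe sets that rose and fell there are given above for the inhibitors. AT4G25250 therefore had the only called fall in the epidermis within the inhibitor and esterase lists besides AT4G25260. All 3 lists were written from gene identifiers, and some pectin methylesterases and extensins were added by words in their RefSeq synonyms. The extensins added in this way were AT1G12090, AT2G27380 and AT4G26750. Family membership was not checked further. The partners AT2G45220, AT1G12040, AT1G21310 and AT5G06640 had no probe set naming 1 gene.

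**Figure D4:**
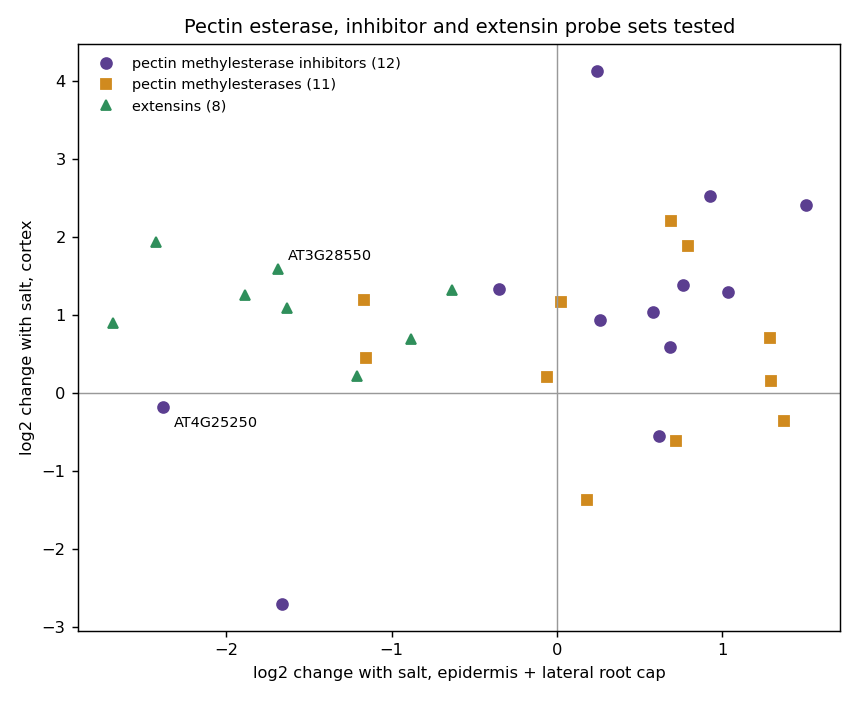
Salt minus standard change (log2(signal + 16) scale) in the epidermis and lateral root cap (x axis) against that in cortex (y axis) for the tested probe sets of 12 pectin methylesterase inhibitors, 11 pectin methylesterases and 8 extensins. The extensins, AT3G28550 among them, lie left of 0 and above 0, and AT4G25250 lies at -2.38 and -0.19, beside AT4G25260 at -1.67 and -2.71.

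The profiles of AT4G25250 and AT3G28550 had a Pearson r of 0.864 over the 36 arrays and 0.918 over the 12 group means, given as descriptions, since both genes share their arrays and were both chosen on the standard arrays. Over the 30 arrays outside the epidermis r was 0.603, and over 28, without both stele replicate 3 arrays, it was 0.485. AT4G25250 ranked 4 among 9891 probe sets by likeness to AT3G28550, and AT3G28550 ranked 28 by likeness to AT4G25250.

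The 5 genes most like AT4G25250 over the 36 arrays were AT5G40510 (r = 0.954), AT3G62280 (0.949), AT2G21045 (0.945), AT2G18980 (0.930) and AT1G23750 (0.925), with r of 0.957 to 0.989 over the 12 group means. Those most like AT3G28550 were AT2G21045 (r = 0.911), AT1G51850 (0.892), AT2G01540 (0.873), AT4G25250 itself and AT5G40510 (0.862). Over group means 3 of each 5 were still among the first 5. Of these 7 other genes 4 passed as lower in the epidermis with salt, as did 12.6% of all probe sets, namely AT2G21045 (-2.44, limma adjusted p = 0.00298), AT2G01540 (-2.01, adjusted p = 9.3e-05), AT1G23750 (-1.77, adjusted p = 0.0153) and AT3G62280 (-1.56, adjusted p = 0.0182). AT2G01540 also rose in cortex, by 1.06 (limma adjusted p = 0.0227), as AT3G28550 did. The likeness was measured over the same arrays, so these changes are no independent support.

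**Figure D5:**
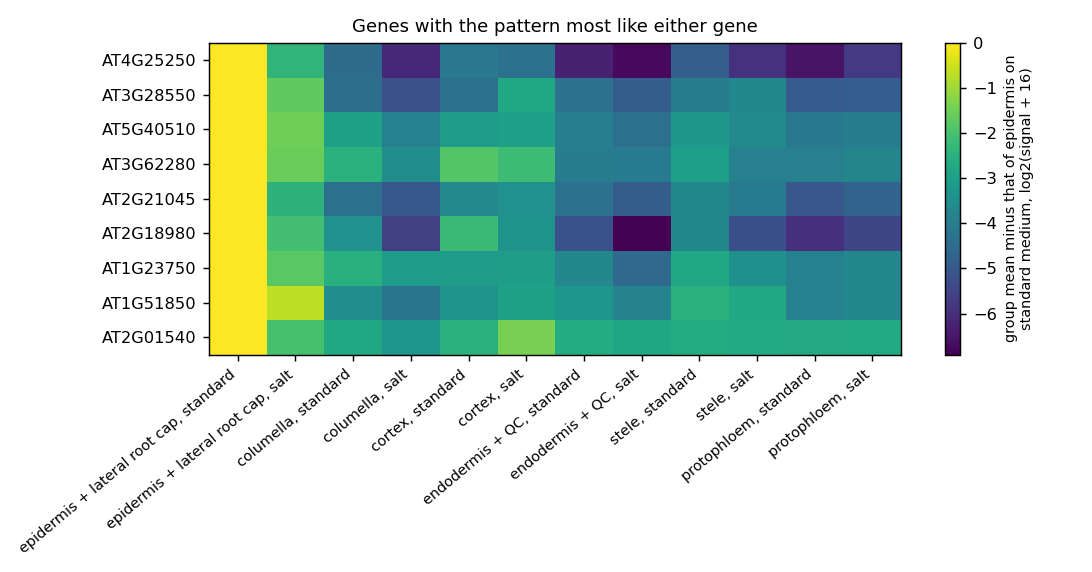
Mean log2(signal + 16) of each of the 12 groups minus that of the epidermis and lateral root cap on standard medium, for AT4G25250, AT3G28550 and the 7 genes most like either of them (colour scale, yellow for 0). The salt epidermis group lies below the standard one in each row, by 2.38 for AT4G25250 and 1.69 for AT3G28550.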

How the data were processed

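Per the submitters' processing notes the authors used MAS5, and the deposited table holds a linear intensity for each probe set on each array. The MAS5 version and scaling target: not given in the sources used here. On each array the mean after trimming 2% from each end was 250.02 or 250.03, so a shift of most transcripts in one direction would have been removed. Medians were 62.1 to 95.6, replicate correlations 0.862 to 0.988, and 3 arrays a group limit the precision.

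Of 22810 probe sets, 64 controls were left out, and 17633 were tested, each of which passed the 40th percentile on 3 or more arrays. Of all probe sets 13513 named 1 gene, 503 several and 8730 none. Values were taken as log2(signal + 16), which understates changes of low signals. With limma 3.58.1 (R 4.3.3), 12 group means were estimated from the 36 arrays together (lmFit, eBayes with trend, 24 residual degrees of freedom, two-sided, Benjamini-Hochberg over all probe sets tested, threshold 0.05). Code was tested on simulated data. Tables and figures used Python 3.11.15, pandas 2.3.3, numpy 2.4.6 and matplotlib 3.10.9.

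Named were both genes, per list the 4 smallest adjusted p for salt in the epidermis, and the 5 genes of highest r with each. The genes, lists and tests were chosen with earlier results of these data known. Alternatives were offsets of 1 and 64, no filter or the 60th percentile, quantile normalization, the GAPDH ratio as covariate, a replicate block, eBayes without trend or robust, replicates 1 and 2 only, the arrays compared alone, and each array left out.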

Additional observations from a re-analysis of the deposited data

Results flagged for a closer look

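For both genes and the named relatives, these salt responses differed between populations by a test of the difference itself. The differences of the members rest on the standard arrays that served their choice, so they are not independent of it. The relatives were named for the smallest adjusted p of their salt change in the epidermis. That change enters each difference given for them, so these differences are not independent of the naming. AT3G28550 had an F of 3.38 over the 6 responses (limma adjusted p = 0.0364), and its epidermis response minus its cortex response was -3.28 (adjusted p = 0.00884). The AT4G25250 epidermis response minus its protophloem response was -3.18 (adjusted p = 0.0416), a call lost in 9 of 12 fits without 1 array and, at -1.04 (adjusted p = 0.806), with the GAPDH ratio as covariate.

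Among the relatives named, the epidermis response minus the mean of the other 5 differed for the inhibitor AT4G25260 (-0.91, limma adjusted p = 0.0269), the esterase AT5G09760 (1.77, adjusted p = 0.00063) and the extensins HRGP1 (AT3G54590, -1.45, adjusted p = 0.0208), AT5G06630 (-2.13, adjusted p = 0.00323) and AT1G23720 (-2.12, adjusted p = 0.00146). The epidermis response minus the cortex response differed for AT4G25260 (1.05, limma adjusted p = 0.0431), for the esterases AT3G49220 (-1.51, adjusted p = 0.00927) and AT5G09760 (1.74, adjusted p = 0.00677), and for the extensins AT5G06630 (-4.35), AT1G23720 (-3.58), HRGP1 (-3.13) and AT4G18670 (-1.42), whose highest adjusted p was 0.0329. AT4G25260 thus fell less in the epidermis than in cortex, while the extensins went down in the epidermis relative to cortex.

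Over the whole lists, the epidermis response against the others passed as higher and lower for 1 and 1 of 12 inhibitors, 2 and 0 of 11 esterases and 0 and 3 of 8 extensins, and against cortex for 2 and 2, 2 and 1, and 0 and 8. Of all 17633 probe sets, 1466 passed as higher and 1026 (5.82%) as lower against the others. Against cortex these numbers were 1437 and 1591 (9.02%).

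Groups of 3 arrays are too small for the test of single outlying samples. The pairwise differences share the epidermis arrays and were added after the mean difference had been seen.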

How the results depend on the processing

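Outside the refits that left out 1 array, 339 alternative values were computed for the members' comparisons, their Pearson r and the leading list counts. Of these 300 were counted as unchanged. For tested comparisons this meant the same direction and side of the threshold. For leads on standard arrays it meant the same direction and a move under the gene's residual SD. List counts had to stay within 1.5 times, and r within a set margin. With an offset of 1 the epidermis falls were -2.42 for AT4G25250 (limma adjusted p = 0.142) and -1.76 for AT3G28550 (0.228), the AT3G28550 cortex change was 2.60 (0.0549) and its protophloem change turned to -0.40. The AT4G25250 difference from protophloem was then -3.89 (0.110), its salt difference from cortex 2.09 (0.157), and the AT3G28550 lead on standard arrays 5.55. With an offset of 64 that lead was 3.15, the AT3G28550 cortex change 0.81 (0.0510), and 5 differences passed: epidermis response against the others, -1.96 for AT4G25250 (0.0106) and -1.59 for AT3G28550 (0.00247), AT4G25250 against cortex -2.14 (0.0277), AT3G28550 against protophloem -1.56 (0.0161), and its salt difference from cortex 0.80 (0.0449). With no filter the AT4G25250 difference from protophloem was -3.18 (0.0536), and with quantile normalization the AT3G28550 cortex change was 1.25 (0.105). With the GAPDH ratio as covariate the epidermis falls were -1.09 (0.566) and -1.48 (0.284), the cortex changes 0.61 for AT4G25250 and 1.72 for AT3G28550 (0.101), and the protophloem changes -0.049 and -0.052. AT4G25250 then led by 3.75 on standard arrays, differed by -1.04 from protophloem (0.806) and by 1.61 from cortex on salt (0.0973), and 2 extensins rose in cortex. On replicates 1 and 2 only, AT4G25250 changed by -2.26 in columella (0.000275) and 0.13 in endodermis, and its epidermis response differed by -1.68 from the others (0.0102) and by -1.58 from cortex (0.0436). AT3G28550 then changed by 1.13 in cortex (0.0503) and -0.54 in protophloem, and its salt difference from cortex was 1.27 (0.0243). On the arrays compared alone, the AT3G28550 cortex change was 1.59 (0.0675), its difference from protophloem -1.77 (0.0271), and the AT4G25250 difference from cortex -2.20 (0.0107). Without both stele replicate 3 arrays, added after seeing the data, AT3G28550 differed by -1.87 from the others (0.00901), by -1.77 from protophloem (0.0414) and by 1.07 from cortex on salt (0.0456). The response differences of both genes are not independent of their choice in any of these settings. The cause of these moves was not tested.

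Leaving out each array in turn, the epidermis change ranged from -2.50 to -2.15 for AT4G25250 and from -1.92 to -1.43 for AT3G28550, and in cortex from -0.56 to 0.22 and from 1.25 to 2.27. The ranges were -2.34 to -1.25 in columella, -0.94 to 0.47 in endodermis, -1.99 to -0.01 in stele and 0.07 to 1.36 in protophloem for AT4G25250, and -0.88 to -0.70, -0.95 to -0.12, -0.40 to 1.25 and -0.41 to 0.33 for AT3G28550. The epidermis response against the others ranged from -2.07 to -1.62 and from -2.05 to -1.57. Against protophloem it ranged from -3.74 to -2.45 for AT4G25250, whose salt difference from cortex ranged from 1.67 to 2.33. The number of extensins that rose in cortex was 2 to 6.

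Same-numbered replicates shared no stated source, and their deviations correlated at -0.115 to 0.445, with no population in which all 3 pairs were over 0.1. With the replicate number as a block no call of either gene changed, and the epidermis falls were -2.38 (limma adjusted p = 0.00302) and -1.69 (0.0287).

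Calls over all probe sets moved by more than 1.5 times in these cases. With the GAPDH covariate they were 2957 against 4983 in the epidermis, 3193 against 6719 in cortex and 2287 against 4273 in protophloem. On replicates 1 and 2 only they were 6047 against 2503 in columella, 1968 against 444 in endodermis, 7196 against 4469 in stele and 3973 against 2492 for the epidermis response against the others. On the arrays compared alone they were 8046 in the epidermis, 539 in columella, 172 in endodermis and 1887 in protophloem. Leaving out 1 array gave 629 to 4048 in columella, 222 to 911 in endodermis, 2245 to 5798 in stele, 2253 to 4041 in protophloem and 1435 to 2855 for that response difference.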
